A study of Helianthus annuus with 24 samples.

Results

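The floral nectary of ER, a maintainer line of sunflower (Helianthus annuus), was compared with the nectaries of lines 434 and 467, the interspecific crosses that the labels class as high in nectar production. The members were chosen by line and tissue: 3 nectary libraries of ER and 3 of each high line, 9 of the 24 libraries in the series. All 9 came from plants of about 40 days, raised under glass at 23 °C with 16 h of daily light, and each library pooled about 50 secreting nectaries from different plants, dissected 4 to 8 h after dawn. No group received a treatment, and all 3 groups shared these conditions. ER carries no nectar class in the labels, and each group is 1 line, so line and class cannot be told apart. The other nectary libraries, used for the shared estimate of spread and to place ER, came from the low lines 412 and 441 and the medium lines 452 and 456, while leaf served only as a reference for tissue. The leaf libraries are labelled as line 434, whereas the design text of the series gives ER as their source, so their line is uncertain.

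In hybrid breeding, a maintainer line is a fertile line that keeps a cytoplasmic male-sterile line in cultivation. Nectar sugar is made from phloem sugar or stored starch. Sucrose phosphate synthase builds sucrose in the nectary cell, the uniporter SWEET9 lets it out, and cell wall invertase splits it outside, which keeps the outward gradient in the species studied. The YABBY factor CRC is needed for nectary formation in Arabidopsis, and MYB21 acts downstream of jasmonate in the maturing flower.

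The data are expression values of 42063 assembled contigs, normalized by the upper quartile and rounded to whole numbers by the authors, so they are levels in arbitrary units and not read counts. Contigs are named here by their deposited Arabidopsis match, and a gene name may stand for more than 1 contig. Levels are means ± SD of these normalized values (n = 3 libraries per line), and changes are differences of log2(value + 1) with their standard error. Contigs with a limma p under 0.05 after Benjamini-Hochberg adjustment were called. The files give no contig lengths, so levels are compared between lines and never between genes. Estimated depth was 8.45 to 12.97 M reads over the 9 libraries, and 1 read was worth 0.895 to 1.5 units. Within a line, libraries correlated at 0.9494 to 0.9594 in ER, 0.9577 to 0.9653 in 434 and 0.9587 to 0.9656 in 467 (Pearson, log2 values across contigs). ER replicate 1 stood apart in scarce contigs. Where all 6 high libraries held at least 200 and the other ER libraries at most 5 (31 contigs), ER replicate 1 held a median of 4.83% of the high mean, with a highest share of 17.08%. The same measure gave a median of 0.99% for ER replicate 2 (4 contigs) and 0.59% for ER replicate 3 (3 contigs). Some counts, and the decreases among abundant contigs, are therefore also given without replicate 1. For other named contigs scarce in ER, no result without replicate 1 is given. In bulk tissue, fewer cells of a type and less RNA per cell cannot be told apart, and the p-values reflect only how much pooled nectary samples of a line varied.

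The labelled tissue held its markers in ER. CRC (Helianthus1659) stood at 26226, 26252 and 27355 in the ER libraries, at 23789, 22782 and 22267 in 434 and at 20564, 23324 and 22833 in 467, against a leaf mean of 58.33 ± 16.2. The ER libraries lay above all 6 high libraries, by a change of 0.24 ± 0.15 that did not pass (adjusted p = 0.385). The floral homeotic gene AG (Helianthus13335), which specifies stamens and carpels, stood at 19461, 15850 and 22695 in ER and at 12142 to 18369 in the high libraries (0.34 ± 0.35, adjusted p = 0.69). Of 16 marker genes of pollen and tapetum, 14 had no contig with that match. The other 2, ANX1 and ANX2, summed to 1053 to 1306 in ER, 1197 to 1443 in 434, 1217 to 1728 in 467 and 680 to 696 in leaf. Of 9 stomatal markers only OST1 had contigs, with a sum of 1247 to 1299 in ER, 1168 to 1303 in 434, 762 to 817 in 467 and 2112 to 2163 in leaf. The ovule markers STK and INO had no contig among those tested.

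None of the contigs fixed for that purpose (SWEET9, SWEET10, CWINV2, SUS4, SPS4F, SPS1F, MYB21, CRC and AG) was called between ER and the high lines, while 6 of these 9 were called higher in ER than in the low lines. SWEET9 (Helianthus17324) stood at 162565, 140176 and 197058 in ER. It stood at 148424, 127869 and 128978 in 434 and at 52938, 28265 and 38248 in 467. The ER and 434 libraries overlapped, and all 3 libraries of 467 lay below both. The change from the high lines was 1.19 ± 0.54 (adjusted p = 0.176). Against the lines taken singly it was 0.29 for 434 (adjusted p = 0.917) and 2.1 for 467 (adjusted p = 0.0281), and the 434 to 467 difference itself did not pass (adjusted p = 0.0812). The low lines stood at 16120 ± 2324 (412) and 22580 ± 10530 (441), which put ER 3.19 higher on the log2 scale (adjusted p = 0.000189). Over all contigs, 28.1% were called between ER and the low lines, 34.0% between ER and the medium lines, and 15.5% between ER and the high lines. These 3 comparisons share the ER libraries.

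CWINV2 (Helianthus23193), the cell wall invertase, followed the same order. It stood at 183722, 193694 and 245946 in ER, 197054, 175180 and 188164 in 434, and 87252, 69306 and 78861 in 467. ER lay within or above the 434 libraries and above all those of 467 (0.77 ± 0.32, adjusted p = 0.132 against both lines, 1.4 and adjusted p = 0.0134 against 467 alone). SUS4 (Helianthus24021), a sucrose synthase, stood at 31397, 19874 and 28804 in ER and at 21404 to 40544 in the high libraries. SPS4F (Helianthus28575), a sucrose phosphate synthase, stood at 11368, 9217 and 10560 in ER and at 8824 to 12413 in the high libraries. Both overlapped the high lines (-0.27 ± 0.48, adjusted p = 0.866, and 0.03 ± 0.41, adjusted p = 0.991), and both were higher than in the low lines (2.43, adjusted p = 0.000741, and 2.38, adjusted p = 0.000205). MYB21 (Helianthus32958) stood at 16142, 12430 and 20477 in ER, 14043, 12805 and 15032 in 434 and 8877, 6788 and 7130 in 467. Its ER libraries overlapped 434 and lay above 467 (0.64 ± 0.41, adjusted p = 0.399), and it was 2.21 higher than in the low lines (adjusted p = 0.000473). SWEET10 (Helianthus10294), of the same transporter family as SWEET9, stood at 30289, 20212 and 33499 in ER and at 14816 to 81806 in the high libraries (-0.49 ± 0.75, adjusted p = 0.83). SPS1F (Helianthus37345) stood at 2398, 2069 and 2310 in ER and at 2042 to 2624 in the high libraries (-0.04 ± 0.19, adjusted p = 0.97). A p that misses the threshold does not show equal levels, and the standard errors of SWEET9, SUS4, SPS4F and SWEET10 were 0.41 to 0.75 log2 units. The fixed genes CWINV4, SPS2F and PIN6 had no contig.

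**Figure D1:**
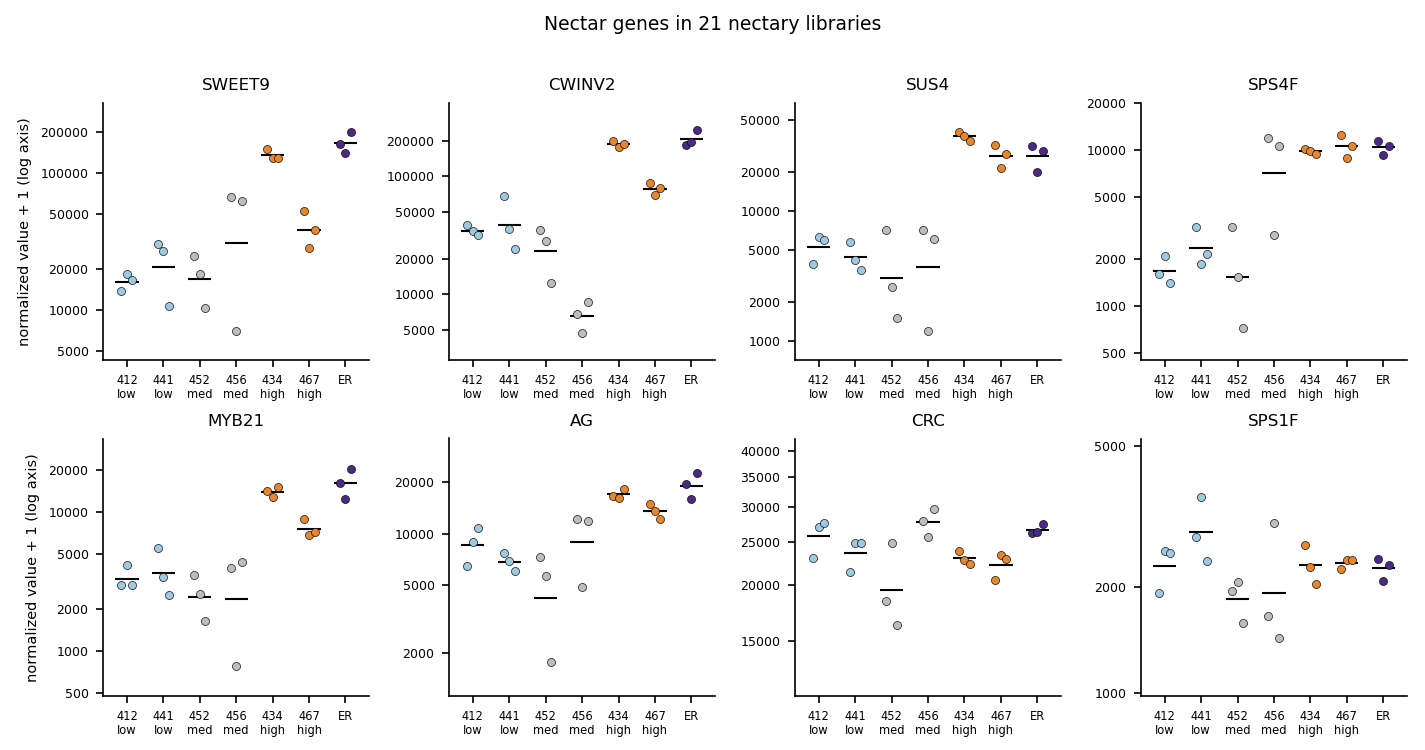
Normalized values + 1 (log axis, a different range in each panel) of 8 contigs in the 21 nectary libraries; each point is a library and each bar the mean of 3 on the log scale. ER lies with line 434 and above line 467 for SWEET9, CWINV2 and MYB21, and all 7 lines lie close together for CRC and SPS1F.

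Within the list of nectar secretion and nectary development, 2 of 15 contigs tested were lower in ER and none was higher. That is 13.3% called, against 15.5% of all contigs and 12.2% of contigs with an Arabidopsis match (median change 0.05, against 0.03 and 0.06). Every list is made of such matches, so 12.2% is the closer comparison for the shares of the lists below as well. Both belong to matches whose main contig did not pass. A second MYB21 contig (Helianthus41482) stood at 477, 503 and 438 in ER and at 718 to 1435 in the high libraries (-1.11 ± 0.2, adjusted p = 0.000418). It lay below all 18 other nectary libraries. A second CRC contig (Helianthus36845) stood at 73, 45 and 47 in ER, 271, 264 and 239 in 434 and 116, 131 and 101 in 467 (-1.67 ± 0.4, adjusted p = 0.00642), and was not called against 467 alone (adjusted p = 0.15). When all contigs of a match were added up, MYB21 changed by 0.50 (adjusted p = 0.353) and CRC by 0.23 (adjusted p = 0.345). In the list of sucrose synthesis and cleavage, 2 of 17 contigs were higher and none was lower (11.8% called). Both match the invertase CWINV3, and without ER replicate 1 the count was 0. Helianthus40841 stood at 2132, 1967 and 2187 in ER against 1173 to 1915 in the high libraries, above all 6 (0.45 ± 0.12, adjusted p = 0.0135).

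Across the whole table, 38457 contigs passed the filter (a mean of at least 10 over the 21 nectary libraries). Of these 2654 (6.9%) were higher and 3318 (8.63%) were lower in ER. The test against each high line apart called 14.0% of contigs for 434 and 14.6% for 467, and 2778 contigs (7.22%) were called against both in the same direction, 899 higher and 1879 lower. Another 156 were called against both in opposite directions. Between 434 and 467 themselves 10.4% were called. Decreases were larger, with a median of -2.04 among called contigs against 1.49 for increases, and fewer of them carried an Arabidopsis match (30.4% against 43.5%, and 46.1% of all tested). The 3 ER libraries did not overlap the 6 high libraries in 17.5% of contigs. In 1464 contigs (3.81%), 466 higher and 998 lower, the contig was called and ER lay outside all 18 other nectary libraries. On a principal component analysis of the 21 libraries, the first component (28.8% of the variance) put ER at 86.21 to 116.08, beside 434 (118.16 to 121.83) and 467 (91.39 to 104.65). The third (12.3%) set ER apart, at 116.08 to 154.28. Replicate 3 of medium line 452 stood apart from all others on the first, at -308.94 against -111.54 to 121.83, and correlations within 452 fell to 0.7858; without it 3735 contigs were called higher in ER and 4332 lower. Without ER replicate 1, 2019 contigs were called higher and 3014 lower, against 1839 and 2682 without replicate 2 and 1953 and 2533 without replicate 3.

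**Figure D2:**
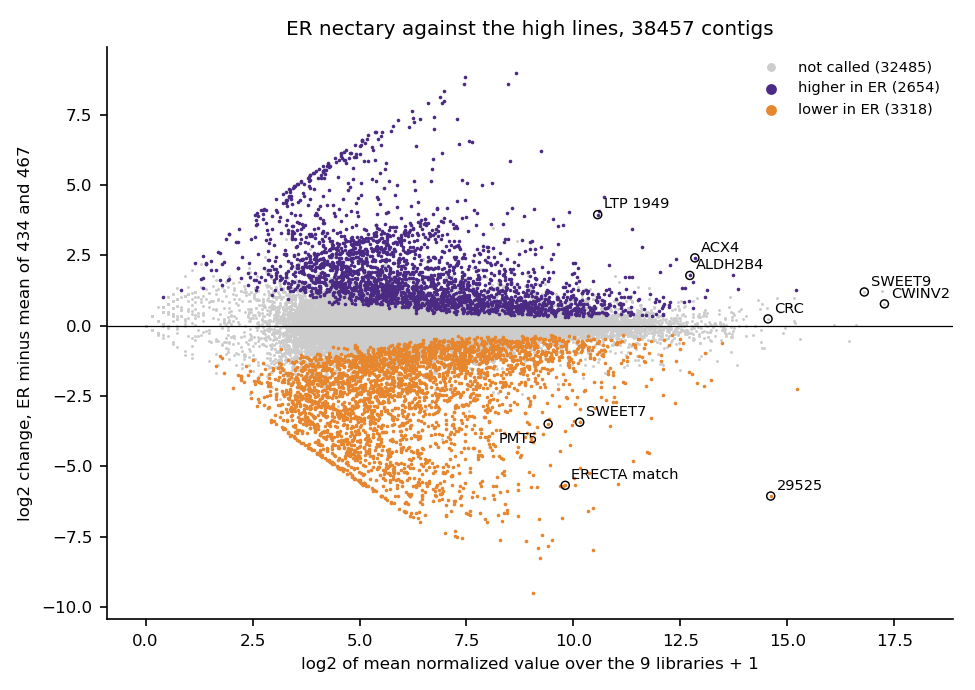
Log2 change of ER from the mean of 434 and 467 (vertical axis) against the log2 mean normalized value over the 9 libraries (horizontal axis), 1 point per contig. The 2654 contigs called higher and 3318 called lower are coloured, and SWEET9, CWINV2 and CRC lie among the contigs not called.

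In phenylpropanoid and flavonoid synthesis, 7 of 21 contigs (33.3%, against 15.5% of all contigs) were called higher in ER, none was lower and 14 did not pass, with a median change of 0.82. Against 434 alone 9 were higher and none was lower, against 467 alone 5 were higher and 1 lower, and 3 were called against both. Without ER replicate 1 the count was 6 and without 452 replicate 3 it was 9. Summed by match, 6 of 12 genes were higher and none was lower (all matches: 739 higher and 586 lower of 9773). The summed level of the list was 20484 to 23480 in ER, 7969 to 8996 in 434 and 7705 to 14708 in 467, so ER lay above both high lines, which overlapped each other. The F3'H match alone made up 14650 of the mean sum in ER, 4975 in 434 and 7434 in 467. The first steps, which turn phenylalanine into cinnamate and coumarate, were represented by PAL2 (Helianthus1892) and C4H (Helianthus35571). PAL2 stood at 998, 1978 and 1046 in ER and at 400 to 1309 in the high libraries, with 1 library of 467 above the lowest ER libraries (1.14 ± 0.33, adjusted p = 0.023; 0.269 against 467 alone). C4H stood at 308, 427 and 341 in ER, above all 6 high libraries at 74 to 220 (1.5 ± 0.33, adjusted p = 0.00313; 0.0645 against 467 alone).

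CCOAOMT1 (Helianthus4593), a methyltransferase of the lignin branch, stood at 1379, 2593 and 1609 in ER, 457, 1193 and 356 in 434 and 668, 302 and 416 in 467. All ER libraries lay above the high libraries (1.83 ± 0.39, adjusted p = 0.00244). In the flavonoid branch, CHI (Helianthus21505), which closes the ring of chalcones, stood at 395, 372 and 449 in ER, 149, 223 and 122 in 434 and 75, 78 and 97 in 467. ER was higher than every other nectary library (1.8 ± 0.22, adjusted p = 8.05e-06). F3'H (Helianthus27324), which adds a hydroxyl to the flavonoid B ring, stood at 16288, 10655 and 16244 in ER and at 4468 to 9409 in the high libraries, again without overlap (1.28 ± 0.24, adjusted p = 0.000605). MYB111 (Helianthus16706), an activator of flavonol synthesis in Arabidopsis, stood at 206, 574 and 306 in ER and at 56 to 185 in the high libraries (1.34 ± 0.4, adjusted p = 0.0284; 0.146 against 467 alone). Against the low lines 13 contigs of the list were higher and 1 was lower. Members that did not pass included the most abundant 4CL contig (Helianthus24991), at 1328 ± 109.7 in ER, 810.3 ± 70.61 in 434 and 768.3 ± 268 in 467 (0.78, adjusted p = 0.0996).

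**Figure D3:**
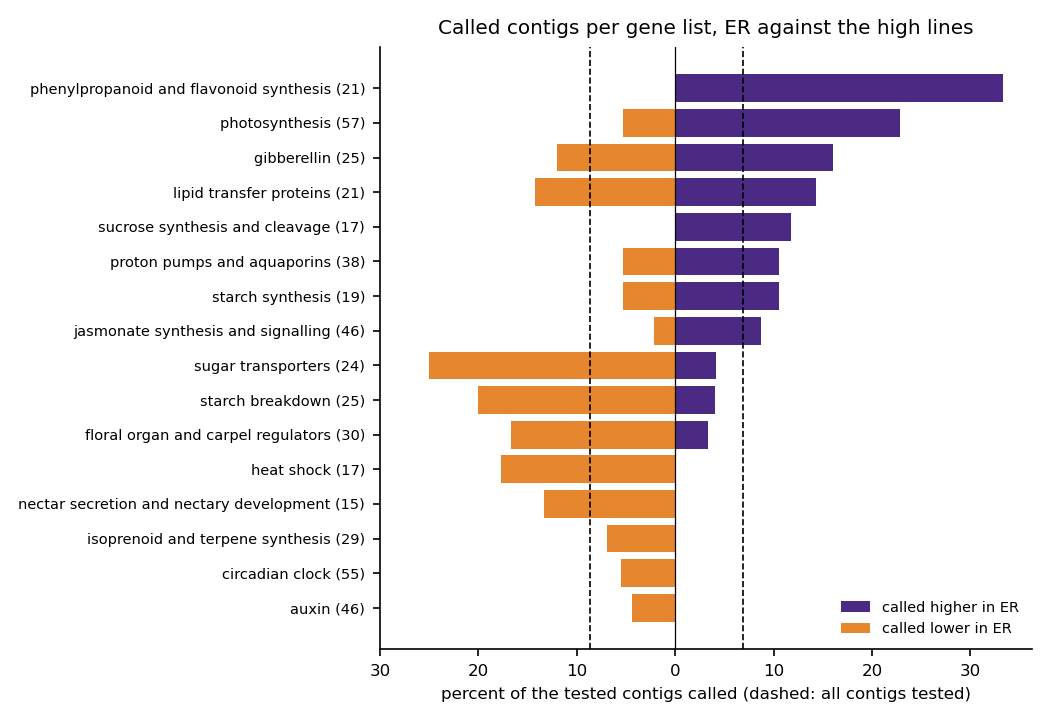
Percent of the tested contigs of each list (number in brackets) called higher (right) or lower (left) in ER; dashed lines mark the shares over all contigs, 6.9% and 8.63%. Phenylpropanoid and flavonoid synthesis stands at 7 of 21 higher, photosynthesis at 13 of 57 higher and sugar transporters at 6 of 24 lower.

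Among sugar transporters 6 of 24 contigs were lower in ER and 1 was higher (29.2% called, against 15.5% of all contigs, median -0.21). PMT5 and SWEET7 hold 2 of these calls each, and by match 2 of 13 were lower, PMT5 and SUC4, and 1 was higher (23.1%, against 13.6% of all matches). Without ER replicate 1 the decreases numbered 4. PMT5, a proton symporter for polyols and monosaccharides, was lower in both of its called contigs. Helianthus3236 stood at 117, 67 and 44 in ER, 1654, 1395 and 1524 in 434 and 525, 477 and 303 in 467. ER lay below all 18 other nectary libraries, and 434 above 467 (-3.5 ± 0.23, adjusted p = 3.76e-09). Summed over its 4 contigs, PMT5 changed by -2.84 (adjusted p = 2.12e-07). SWEET7 (Helianthus15801), a SWEET transporter of another clade than SWEET9, stood at 282, 121 and 56 in ER, 1612, 537 and 1839 in 434 and 1422, 3555 and 762 in 467. ER again lay below all 18 others (-3.43 ± 0.66, adjusted p = 0.000928), and the low lines stood at 3973 ± 629.9 and 4680 ± 2486. Its second contig (Helianthus29327) was also lower, at 141, 161 and 258 in ER and 299 to 1106 in the high libraries (adjusted p = 0.0232). Over all 3 contigs of the match, SWEET7 changed by -1.18 and did not pass (adjusted p = 0.136). SUC4 (Helianthus1789), a sucrose symporter of the vacuolar membrane, stood at 958, 1032 and 940 in ER, below the 1178 to 1715 of the high libraries (-0.53 ± 0.17, adjusted p = 0.0361). A minor contig of STP13 (Helianthus26813), a hexose symporter, stood at 6, 0 and 0 in ER and 17 to 86 in the high libraries. Summed over its 3 contigs, STP13 stood at 9028 in ER, 12510 in 434 and 7442 in 467 and did not pass (-0.1, adjusted p = 0.861). The call in the other direction was SWEET2 (Helianthus1180), a vacuolar sugar transporter in Arabidopsis, at 52, 19 and 18 in ER and 1 to 3 in the high libraries. The low lines stood well above, at 306 ± 93.92 and 186 ± 50.51.

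In starch breakdown 5 of 25 contigs were lower and 1 was higher in ER (24.0% called, against 15.5% of all contigs, median 0.01). BAM1 (Helianthus13167), a plastid beta-amylase that releases maltose, stood at 659, 858 and 575 in ER, 418, 252 and 344 in 434 and 198, 130 and 250 in 467. ER lay above all of them (1.47 ± 0.24, adjusted p = 0.000202). Another contig of the match, Helianthus13166, was listed at 0 in all ER libraries and stood at 94, 99 and 98 in 434 and 6, 3 and 7 in 467. Summed, BAM1 changed by 1.19 (adjusted p = 0.00134) and was not called against 434 alone (adjusted p = 0.197). GWD1, which phosphorylates starch before its breakdown, was low in ER and 434 alike. Helianthus18080 stood at 71, 74 and 67 in ER, 67, 71 and 86 in 434 and 642, 754 and 847 in 467, so its call (-1.72 ± 0.17, adjusted p = 4.25e-07) came from 467, with a change of -0.07 from 434 (adjusted p = 0.942). Starch synthesis had 2 contigs higher and 1 lower of 19 (15.8%), and 0 and 0 without ER replicate 1. These were the branching enzymes BE2 (Helianthus27564, 0.83, adjusted p = 0.0275) and BE3 (Helianthus12786, -0.91, adjusted p = 0.0456), and the ADP-glucose pyrophosphorylase subunit APS1 (Helianthus17268, 0.54, adjusted p = 0.0497; summed match 0.236).

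Photosynthesis contigs, which serve as markers of green tissue, were higher in ER than in 434. Of 57 tested, 13 were called higher and 3 lower against the high lines (28.1%, against 15.5% of all contigs, median 0.62). Against 434 alone 22 were higher and none was lower, and against 467 alone 6 were higher and 6 lower. Between 434 and 467, 17 were lower in 434 and none was higher. The summed level of the list (31 of 44 genes had a contig) was 9921 to 16490 in ER, 3909 to 6156 in 434, 5626 to 13654 in 467, 16761 to 20021 in low line 412, 8759 to 12038 in low line 441 and 2237298 to 3162062 in leaf. PSAF (Helianthus25702), a subunit of photosystem I, stood at 353, 374 and 520 in ER, 84, 77 and 50 in 434 and 135, 166 and 114 in 467 (2.07 ± 0.35, adjusted p = 0.000298; summed match 0.00351, and 0.229 against 467 alone). ER lay above all 6, and the low lines stood at 450.7 ± 133.9 and 284 ± 8.66 (adjusted p = 0.705 for ER against both). LHCB2.1 (Helianthus29920), a light-harvesting protein, stood at 269, 179 and 464 in ER, 47, 16 and 3 in 434 and 255, 259 and 56 in 467, overlapping 467 (2.56 ± 0.63, adjusted p = 0.00731). The part that green tissue had in other differences was not tested. Without ER replicate 1 the counts were 15 higher and 2 lower.

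Lipid transfer proteins, which bind lipids in the cell wall, moved in both directions, with 3 of 21 contigs higher and 3 lower (28.6%, against 15.5% of all contigs). The increases were steep. Helianthus9994 stood at 3843, 3720 and 4623 in ER, 215, 166 and 101 in 434 and 491, 252 and 420 in 467. Helianthus1949 stood at 3828, 3424 and 4722 in ER, 360, 322 and 266 in 434 and 156, 422 and 139 in 467. ER lay above every other nectary library for both (4.07 ± 0.33, adjusted p = 5.38e-08, and 3.94 ± 0.32, adjusted p = 3.73e-08). In leaf they stood at 1784 ± 179.4 and 4565 ± 603.2. Helianthus4960 stood at 1658, 1340 and 1924 in ER and 25, 36 and 80 in 434, with 467 spread over 855, 97 and 1132 (3.54 ± 0.7, adjusted p = 0.00116; not called against 467 alone, adjusted p = 0.166). A further contig, Helianthus21062, went the other way, at 399 ± 198.4 in ER against 2351 ± 169.6 in 434 and 2044 ± 508.5 in 467 (-2.54, adjusted p = 0.00139). Helianthus1949 shares its match with Helianthus21062 and with Helianthus16469, which did not pass, and the summed match changed by 0.40 (adjusted p = 0.37).

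The contigs with a mean of at least 1000 in ER or the high lines, called against both high lines and outside all 18 other nectary libraries, numbered 42 higher and 32 lower among those with a match. They were picked out after their values were seen, and some with a known role are named here. The number of matched contigs at that level was not counted, so no share is given. For scale, 3.81% of all contigs tested were called with ER outside all 18 other nectary libraries. ACX4 (Helianthus1472), a short-chain acyl-CoA oxidase of peroxisomal fatty acid breakdown, stood at 14658, 15139 and 17702 in ER, 4137, 3291 and 3711 in 434 and 2352, 2210 and 2638 in 467. ER was 5.3-fold above the high lines on the log2(value + 1) scale (2.41 ± 0.14, adjusted p = 6.27e-10). ALDH2B4 (Helianthus849), a mitochondrial aldehyde dehydrogenase, stood at 11414, 10753 and 13346 in ER, 2035, 1821 and 1542 in 434 and 6821, 5875 and 7082 in 467. No library overlapped between the 3 lines (1.78 ± 0.16, adjusted p = 1.51e-07). In maize a gene of this family, rf2, restores fertility to male-sterile cytoplasm, and the deposited UniRef match of this contig is named Rf2. Transporters were among the increases. Helianthus12461, of the MtN21/EamA family, stood at 7398, 6963 and 7212 in ER against 731 to 1574 in the high libraries (2.81 ± 0.25, adjusted p = 1.83e-07). The proline transporter contig Helianthus5665 stood at 1472, 2457 and 2739 in ER against 330 to 706 (2.22 ± 0.38, adjusted p = 0.000324). A LURP-one-like protein (Helianthus27329) stood at 1040, 1551 and 1757 in ER against 46 to 132 (4.16 ± 0.45, adjusted p = 1.51e-06).

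Among the abundant contigs lower in ER, EXORDIUM-like 3 (Helianthus21786) stood at 61, 13 and 8 in ER, 1747, 2204 and 2482 in 434 and 1508, 1656 and 2004 in 467. The highest ER library was replicate 1, and all 3 lay below every other nectary library (-6.59 ± 0.45, adjusted p = 4.38e-09). The contig matched to the receptor kinase ERECTA, which shapes organs and stomatal spacing in Arabidopsis, stood at 40, 21 and 18 in ER, 1197, 1200 and 1121 in 434 and 1408, 1443 and 1611 in 467 (Helianthus29815, -5.68 ± 0.2, adjusted p = 1.98e-12). It was the only contig of that match. A Bax inhibitor-1 family contig (Helianthus27284), of a family that restrains cell death, stood at 190, 41 and 29 in ER against 2499 to 4223 (-5.62 ± 0.43, adjusted p = 1.86e-08). Summed over 3 contigs, that match changed by -1.94 (adjusted p = 8.97e-06). An oligopeptide transporter (Helianthus29518) stood at 1673, 749 and 1034 in ER against 6196 to 8480 (-2.75 ± 0.19, adjusted p = 6.23e-09). PEPC3 contigs show how a contig and its match can part. Helianthus25966, for phosphoenolpyruvate carboxylase 3, stood at 93, 13 and 31 in ER against 1015 to 2150 (-5.42 ± 0.36, adjusted p = 3.34e-09), while the sum of 5 contigs stood at 8333 in ER, 7697 in 434 and 6996 in 467 (0.18, adjusted p = 0.772). Helianthus29525 matched a cysteine-rich receptor-like kinase and fell from 18832 to 63538 in the high libraries to 3154, 236 and 173 in ER. Here ER replicate 1 stood well above the other ER libraries. Without ER replicate 1 the named decreases kept their direction and call.

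**Figure D4:**
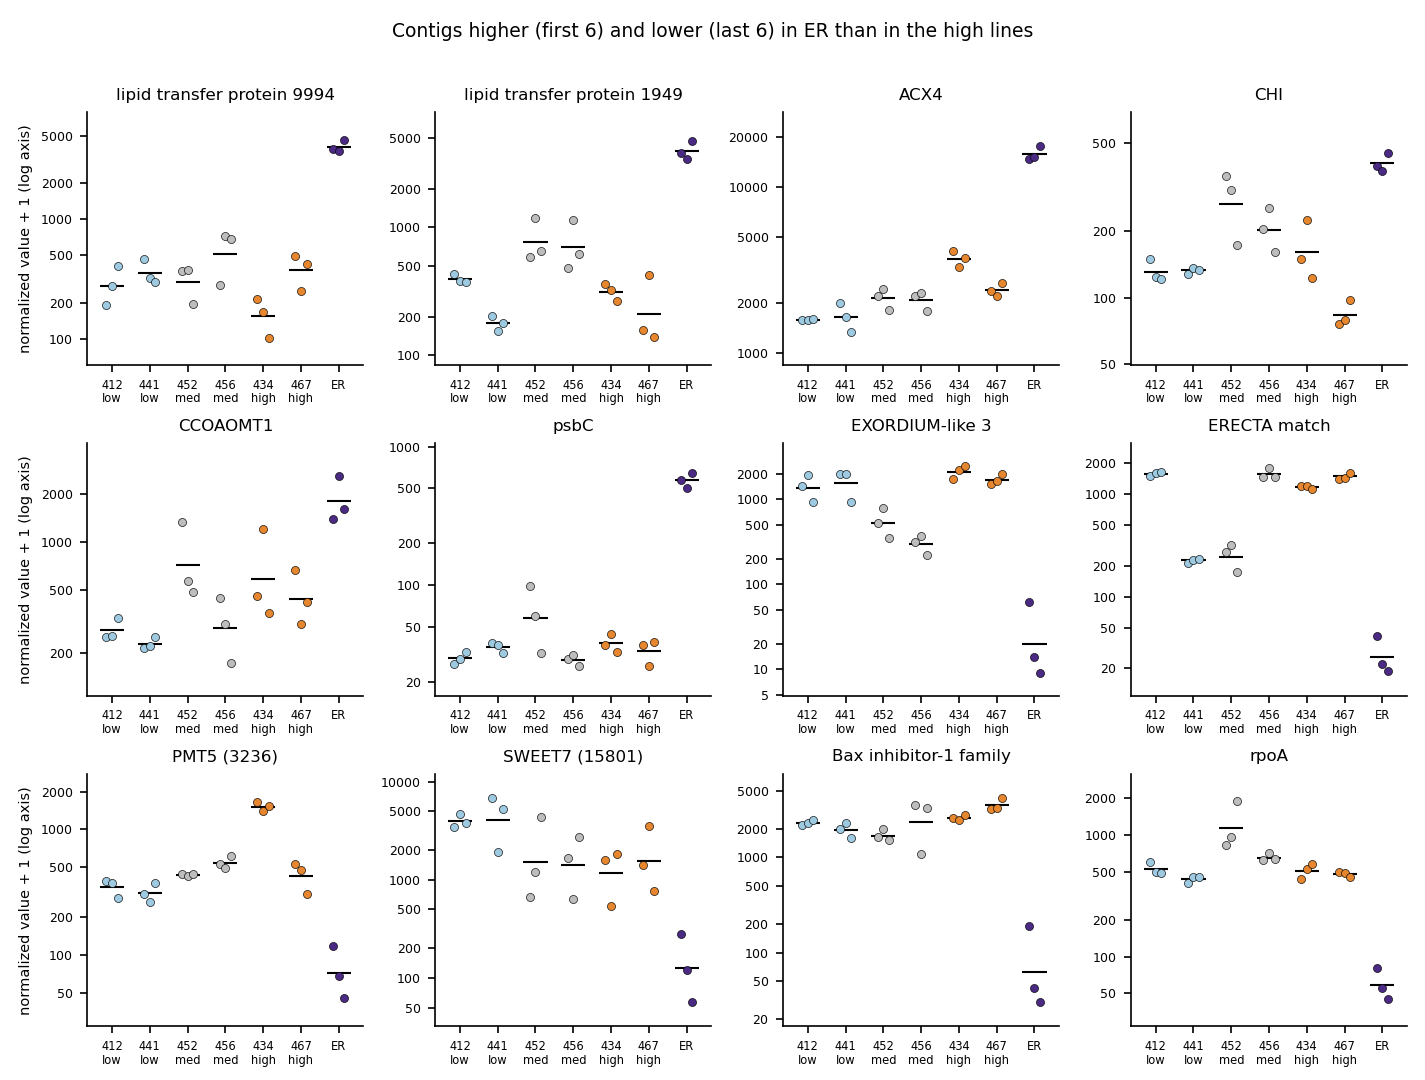
Normalized values + 1 (log axis, a different range in each panel) of 12 contigs in the 21 nectary libraries; each point is a library and each bar the mean of 3 on the log scale. In the first 6 panels ER lies above the high libraries and in the last 6 below them.

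The largest changes among contigs not overlapping between ER and the 6 high libraries included several that the low lines shared with ER. The gibberellin enzyme KAO1, an ent-kaurenoic acid oxidase, had 2 contigs. Helianthus20665 stood at 395, 370 and 319 in ER and at 2, 3 and 0 in 434, was listed at 0 in all libraries of 467, and stood at 935.7 ± 98.15 and 657.7 ± 59.91 in the low lines (adjusted p = 8.01e-05 against the high lines, 0.539 against the low). The list of gibberellin genes had 4 of 25 contigs higher and 3 lower (28.0%, against 15.5% of all contigs, median 0.06), with 1 lower without ER replicate 1. The decreases were the 3 contigs of GA3, an ent-kaurene oxidase, and were led by 467. Helianthus4190 stood at 25, 37 and 21 in ER, 41, 67 and 21 in 434 and 271, 210 and 255 in 467 (-1.82 ± 0.49, adjusted p = 0.0148). A MATE efflux carrier (Helianthus8890) stood at 254, 166 and 279 in ER, 4, 4 and 5 in 434 and 2, 0 and 0 in 467, and was at 12.33 or below on average in the low and medium lines (6.37 ± 0.5, adjusted p = 2.7e-08). A contig of an OB-fold protein (Helianthus11574) had the largest decrease by the rule, at 34, 3 and 0 in ER against 747 to 1018 (-7.45 ± 0.67, adjusted p = 1.53e-07). Summed over 3 contigs, that match stood at 1239 in ER, 5171 in 434 and 927 in 467, a change of -0.82 (adjusted p = 0.00121; 0.131 against 467 alone). Contigs matched to intracellular immune receptors of the NB-ARC class were also lower. Helianthus35285 stood at 36, 4 and 0 in ER against 295 to 506 (-6.17 ± 0.64, adjusted p = 9.27e-07), and Helianthus35287 at 11, 1 and 0 against 118 to 219. In that family 5 of 36 contigs were lower and 2 higher (19.4%, against 15.5% of all contigs).

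Some contigs were present on 1 side and listed at 0 on the other. With at least 50 in all libraries of the other side, 23 contigs were listed at 0 in every ER library and 13 in every high library. Leaving ER replicate 1 aside, 87 contigs were at 0 in the remaining ER libraries. Of the 23, 4 had an Arabidopsis match. These included ribosomal protein S24 (Helianthus12801), listed at 0 in ER and at 95, 113 and 131 in 434 and 132, 150 and 132 in 467. The S24 contig was also near 0 in 412, 452 and 456 (means 1.667, 0.6667 and 0.3333), while 441 stood at 122 ± 20.3. Another was a pre-mRNA branch site protein (Helianthus2652), at 52 to 78 in the high libraries. Of the 13, 2 had a match. These were a DIVARICATA-like homeodomain contig (Helianthus5119), at 99, 103 and 157 in ER, and a coiled-coil protein (Helianthus254), at 85, 74 and 65. Both were listed at 0 in the 6 high libraries and present in the low lines. Helianthus5119 was also present in the medium lines, at means of 70.33 in 452 and 118.0 in 456. Each of these 4 matches had further contigs, and of the summed matches only S24 passed (-0.44, adjusted p = 0.0402; 0.377, 0.462 and 0.443 for the branch site, DIVARICATA-like and coiled-coil matches).

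Floral regulators had 5 of 30 contigs lower and 1 higher (median -0.12), and by match none of 12 was higher and 1 was lower (8.3%, against 13.6% of all matches). A contig of FUL (Helianthus30945), a MADS-box factor of inflorescence and fruit, stood at 15, 1 and 1 in ER, 51, 133 and 71 in 434 and 136, 120 and 152 in 467, and was lower than in all other nectary libraries (-4.7 ± 0.56, adjusted p = 5.52e-06). Summed over 4 contigs, FUL stood at 619.7 in ER, 1115 in 434 and 715.7 in 467 and did not pass (-0.5, adjusted p = 0.264). PI (Helianthus26317), which specifies petals and stamens, stood at 205, 88 and 141 in ER, 364, 458 and 358 in 434 and 160, 278 and 115 in 467. It overlapped 467 (-0.92 ± 0.29, adjusted p = 0.0359). Its partner AP3 (Helianthus22336) stood at 214.3 ± 10.69 in ER, 361.7 ± 47.35 in 434 and 287.3 ± 35.92 in 467 (-0.58, adjusted p = 0.0201), and its summed match did not pass (adjusted p = 0.279).

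Jasmonate genes had 4 of 46 contigs higher and 1 lower (10.9%, against 15.5% of all contigs, median 0.29), and 2 and 0 without ER replicate 1. LOX4 (Helianthus10318), a lipoxygenase at the start of the pathway, stood at 1064, 1400 and 912 in ER and at 403 to 581 in the high libraries, without overlap (1.2 ± 0.23, adjusted p = 0.000947). MYC2 (Helianthus13969), its main transcription factor, stood at 1361, 1609 and 1503 against 780 to 972 (0.74 ± 0.24, adjusted p = 0.0442), and the repressor JAZ1 (Helianthus5978) at 2054, 2607 and 1872 against 903 to 1996 (0.72 ± 0.23, adjusted p = 0.0388; summed match 0.0849). OPR3 (Helianthus34478), a reductase of jasmonate synthesis, was the call in the other direction (-0.56, adjusted p = 0.0344). Circadian clock genes had 3 of 55 contigs lower and none higher (5.5%). PRR7 (Helianthus29730), a morning-phased repressor, stood at 2092, 1778 and 2527 in ER against 2698 to 4748 in the high libraries (-0.8 ± 0.18, adjusted p = 0.00297), and PRR5 and FKF1 were the others. Summed by match, PRR7 (13 contigs) changed by -0.39 (adjusted p = 0.116) and FKF1 did not pass either (adjusted p = 0.0932), while PRR5 did (adjusted p = 0.0398). Auxin genes had 2 of 46 lower and none higher (4.3%), and 1 lower without ER replicate 1. GH3.3 (Helianthus20253), which conjugates auxin, stood at 24, 23 and 31 in ER against 110 to 227 (-2.49 ± 0.72, adjusted p = 0.0234; summed match 0.106), close to the low lines at 20 ± 19.67 and 18.67 ± 10.69.

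Proton pumps and aquaporins had 4 of 38 contigs higher and 2 lower (15.8%, against 15.5% of all contigs). AHA1 (Helianthus29751), a plasma membrane proton pump, stood at 805, 954 and 524 in ER, below all high libraries at 1768 to 3015 (-1.61 ± 0.23, adjusted p = 5.4e-05). The vacuolar aquaporin TIP2;1 (Helianthus37778) stood at 844, 409 and 1066 in ER, 74, 74 and 56 in 434 and 889, 663 and 506 in 467, so ER differed from 434 (adjusted p = 2.9e-06) and overlapped 467 (adjusted p = 0.958). TIP4;1 (Helianthus6786) did the reverse, at 327, 114 and 197 in ER, 144, 87 and 331 in 434 and 7, 3 and 5 in 467. Of the remaining lists, heat shock had 3 of 17 lower and none higher, and isoprenoid synthesis 2 of 29 lower (1 without ER replicate 1) and none higher. Of the 6 ANX contigs 2 were higher and 1 lower (50.0%), and of the 8 OST1 contigs 1 was higher and 1 lower (25.0%). Neither of the 2 pathogenesis-related contigs passed. These shares stand beside 15.5% of all contigs and 12.2% of those with an Arabidopsis match. Among families, cytochromes P450 had 11 higher and 7 lower of 70, retrotransposon-like contigs 6 and 8 of 48, pectin-modifying enzymes and inhibitors 7 and 3 of 53, and UDP-glycosyltransferases 5 and 7 of 67. Pentatricopeptide repeat proteins had 12 and 12 of 174, F-box proteins 13 and 9 of 206, chaperones 17 and 25 of 326, ribosomal proteins 14 and 29 of 377, histones and cyclins 7 and 6 of 143, and MLP-like proteins 0 and 1 of 7. Over all contigs with an Arabidopsis match, 12.2% were called. The share was 29.2% in retrotransposon-like contigs, 25.7% in cytochromes P450, 18.9% in pectin-modifying enzymes and inhibitors, 17.9% in UDP-glycosyltransferases and 14.3% in MLP-like proteins. It was 9.1% in histones and cyclins, 10.7% in F-box proteins, 11.4% in ribosomal proteins, 12.9% in chaperones and 13.8% in pentatricopeptide repeat proteins. These differences were not tested.

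Contigs matched to organelle genomes were examined after their values were seen. Of 25 contigs matched to genes of the Arabidopsis mitochondrial genome, 16 were higher and 4 lower in ER than in 467. Against 434, 0 were higher and 2 lower. Among all 38457 contigs tested, 2549 were higher and 3064 lower in ER than in 467, and 2280 and 3111 than in 434. Of the 25, those lower against both were Helianthus11188, described as a DNA/RNA polymerase, and Helianthus1140, described as a reverse transcriptase. Lower against 467 only were Helianthus18865 (ribonuclease H-like) and Helianthus1600 (mitochondrial ribosomal protein L2). None of these decreases was in a contig described as a subunit of the respiratory chain or ATP synthase. Against both lines together 4 were higher and 4 lower, and without ER replicate 1 the increases numbered 1. Line 434 in turn was higher than 467 in 19 and lower in 1, Helianthus18865. Among all contigs tested, 2140 were higher and 1856 lower in 434 than in 467. Ribosomal protein S12 (Helianthus34584) stood at 3830, 2989 and 2491 in ER, 2871, 2432 and 2482 in 434 and 995, 687 and 1010 in 467. ER and 434 overlapped, and 467 lay below both. The same order held for an NADH dehydrogenase subunit 5 contig (Helianthus38565), at 171, 208 and 135 in ER, 129, 157 and 132 in 434 and 30, 10 and 27 in 467. The low lines stood near 467 for the latter, at 29.67 ± 8.505 and 29 ± 12. Of 17 contigs matched to plastid genes, 2 were higher and 6 lower in ER, and all 8 were called against both high lines. Over all contigs, 6.9% were higher and 8.63% lower, and 7.22% were called against both lines in the same direction. The gene for the plastid RNA polymerase subunit alpha (Helianthus28573, rpoA) stood at 80, 54 and 44 in ER, 436, 521 and 577 in 434 and 500, 485 and 455 in 467 (-3.08 ± 0.21, adjusted p = 6.04e-09). A contig of psbC (Helianthus34079), the CP43 protein of photosystem II, went the other way, at 572, 501 and 643 in ER against 25 to 43 in the high libraries (4 ± 0.27, adjusted p = 4.75e-09). Both lay outside all other nectary libraries.

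**Figure D5:**
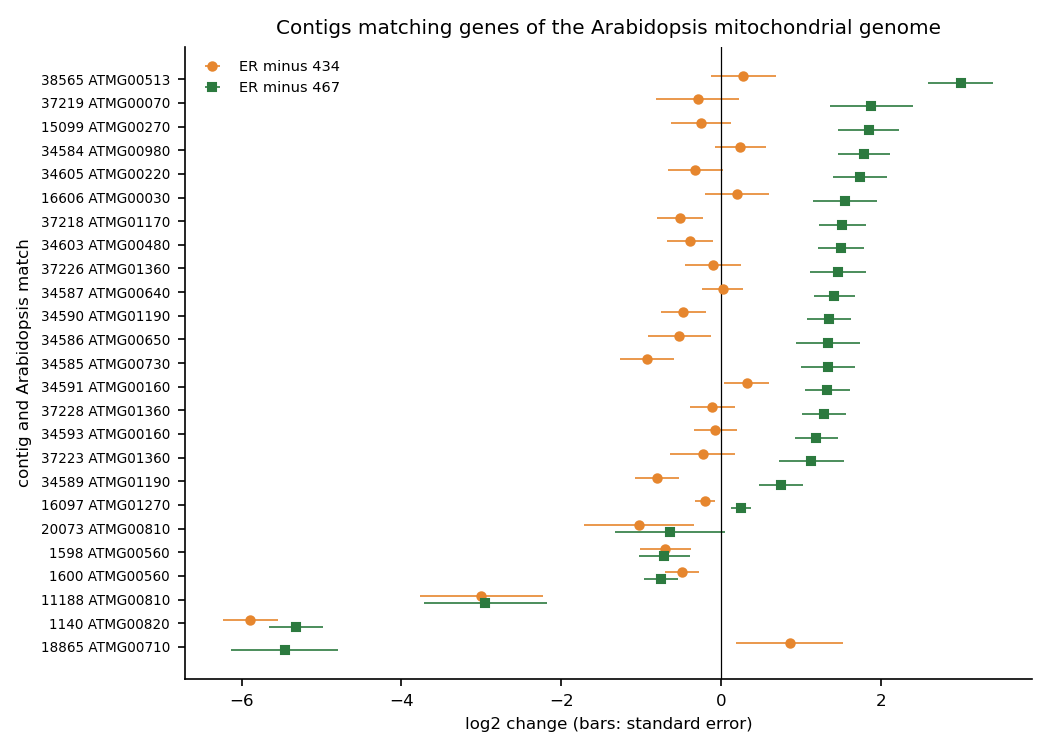
Log2 change of ER from 434 (circles) and from 467 (squares) with standard errors, for 25 contigs matched to genes of the Arabidopsis mitochondrial genome. Most contigs lie near 0 against 434 and between 1 and 3 against 467; both differences use the same ER libraries.

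Contigs without an Arabidopsis match made up most of the calls, and also most of the contigs tested. A match was present for 46.1% of those tested, 43.5% of those called higher and 30.4% of those called lower. Helianthus16605 stood at 39064, 90643 and 54817 in ER and 15455 to 39880 in the high libraries (1.25 ± 0.31, adjusted p = 0.00802). Helianthus29340 stood at 6540, 7709 and 7277 in ER, 8395, 8426 and 9679 in 434 and 267, 208 and 180 in 467. ER lay below all 434 libraries, by a change of -0.3 that did not pass, and far above those of 467 (5.05). Its call as higher in ER therefore came from 467. Helianthus19556 stood at 483, 137 and 150 in ER, 4133, 6012 and 6791 in 434 and 4072, 4302 and 5007 in 467, and at 5905 ± 1468 and 5.667 ± 1.528 in the low lines (-4.52 ± 1.04, adjusted p = 0.00457).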

How the data were processed

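The deposited table holds 1 value per contig and library for 42063 contigs. Per the file headers, the authors normalized counts by the upper quartile, and the values are whole numbers, treated here as a score and not as counts; the header of ER replicate 3 lacks that mark. The aligner is not stated in the labels or headers used here. The authors' 16 columns of means and standard deviations were not used. An Arabidopsis match was present for 18797 contigs.

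Values were fitted as log2(value + 1) with limma 3.58.1 (R 4.3.3, trend) over 21 nectary libraries, with a mean per line, for contigs with a mean of at least 10. The contrast was ER minus the mean of 434 and 467, adjusted by Benjamini-Hochberg over all contigs. Depth was estimated from the steps between low values. The test was checked on simulated data. Alternatives changed the constant, filter, scaling, weights, block, libraries and unit.

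Named contigs were the 12 largest changes each way called against both lines without overlap and with a mean of at least 100, up to 3 per list, the most abundant contig of each of 12 fixed genes, up to 5 unmatched contigs each way, and contigs listed at 0 on 1 side; not all are printed. Members, lists and contigs were chosen with earlier results of these data known. Organelle and abundant contigs, and further list members, were chosen after their values were seen.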

Additional observations from a re-analysis of the deposited data

Results flagged for a closer look

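The high lines differed from each other in 19 of the 78 contigs named, so ER's difference from 434 and its difference from 467 were unequal there. Of all contigs tested, 10.4% were called between 434 and 467. Many of the named contigs were picked because they were called between ER and the high lines, so the shares are not alike. The values are log2 differences of 434 minus 467, with limma p-values adjusted over all contigs. Higher in 434 were CWINV2 (Helianthus23193) by 1.26 (adjusted p = 0.0353), PMT5 (Helianthus3236) by 1.84 (adjusted p = 7.87e-05), ACX4 (Helianthus1472) by 0.63 (adjusted p = 0.0141), CHI (Helianthus21505) by 0.94 (adjusted p = 0.0228) and PI (Helianthus26317) by 1.18 (adjusted p = 0.0278). The same held for CWINV3 (Helianthus40841) by 0.44 (adjusted p = 0.0498), BAM1 (Helianthus13166) by 4.01 (adjusted p = 1.7e-06), TIP4;1 (Helianthus6786) by 4.81 (adjusted p = 9.13e-05) and the MATE carrier (Helianthus8890) by 1.88 (adjusted p = 0.043), and for mitochondrial ribosomal protein S12 (Helianthus34584) by 1.55 (adjusted p = 0.00276), NADH dehydrogenase subunit 5 (Helianthus38565) by 2.72 (adjusted p = 0.000118) and the unmatched contig (Helianthus29340) by 5.35 (adjusted p = 1.67e-11). Lower in 434, with negative differences, were ALDH2B4 (Helianthus849) by -1.88 (adjusted p = 5.87e-07), GWD1 (Helianthus18080) by -3.31 (adjusted p = 5.81e-10), GA3 (Helianthus4190) by -2.62 (adjusted p = 0.00398), LHCB2.1 (Helianthus29920) by -3.39 (adjusted p = 0.00339) and TIP2;1 (Helianthus37778) by -3.29 (adjusted p = 4.91e-06). Lipid transfer protein contigs were lower too, the first (Helianthus4960) by -3.42 (adjusted p = 0.00743) and the second (Helianthus9994) by -1.28 (adjusted p = 0.0412).

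In 3 of the 78 contigs checked, 1 library stood apart from the other 5 of the high lines. Its gap took more of the range of the 6 than Dixon's critical value allows. Chance gives about 1 such group in 20, a share that 3 of 78 does not exceed. The check also takes the 6 libraries as 1 group, though they come from 2 lines. In Helianthus21062, a lipid transfer protein, 467 replicate 3 was lowest, with a gap of 0.692 of the range. In Helianthus27564, the branching enzyme BE2, 467 replicate 2 was lowest, with a gap of 0.681. In Helianthus29327, a SWEET7 contig, 467 replicate 2 was highest, with a gap of 0.679.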

How the results depend on the processing

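Counts of contigs higher and lower in ER (2654 and 3318; against both lines 899 and 1879) moved most with the unit of replication: with each line as 1 value, 42 and 295 were called. With a mean of at least 50 the counts were 1695 and 1971 (both lines 559 and 1142), and with values summed by Arabidopsis match 739 and 586 (242 and 303); both alternatives test fewer features. With sample weights 4480 were higher (both lines 1659), and with the 9 compared libraries alone 4109 (1392). Leaving out 1 compared library gave 1839 to 2428 higher and 2533 to 3120 lower, and 640 to 788 and 1556 to 1783 against both lines. Another constant, no filter, median ratio rescaling and leaving out 452 replicate 3 kept these counts within 1.5 times. With a replicate block, 2592 were higher and 3282 lower; same-numbered libraries of ER and 434 correlated at -0.127 to 0.071 in their deviations, and those of ER and 467 at -0.048 to 0.034, so the numbers do not pair the samples.

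Of 78 contigs named, 67 were called. Without any 1 of the ER libraries, 54 kept direction and call and 13 did not pass; with each line as 1 value 15 passed. Helianthus29340 changed by -0.3 against 434 alone (adjusted p = 0.569), the only called contig to change sign. The cause of these shifts, beyond fewer features or libraries, was not tested. In simulated data at these depths 40% of 1.5-fold changes and 90.7% of 2-fold changes were recovered. Of the calls, 16.1% were false, above the nominal share (3% among calls with a higher mean of at least 100), so calls on scarce contigs are less certain. The simulation gave every contig the same dispersion (0.0131) and held no outlying library. It changed only a small part of the contigs, none of them scarce, and otherwise gave ER, 434 and 467 the same mean. In the measured data 15.5% were called between ER and the high lines and 10.4% between 434 and 467. The false share depends on how many contigs truly differ. These shares therefore need not hold for the measured data, where the spread differed between contigs.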
